A study of Homo sapiens and Mus musculus with 4 samples.

Results

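The SLAM family receptors and their adaptor SAP were described here through 8 gene symbols, SLAMF1, SLAMF6, SLAMF7, CD48, CD84, LY9, CD244 and SH2D1A, each read in human and in mouse. The members were chosen by name, as the human genes of these symbols in the human cell lines and the mouse genes of the same symbols in the mouse cell lines. This gave 16 of the 60736 genes in the table, 8 of 32738 human genes and 8 of 27998 mouse genes. Mouse Cd244 is named Cd244a in the annotation used.

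The transcripts were measured by sequencing bulk RNA of 4 established lymphocyte lines that the study used as bulk references for a mixture of immune cells, with 1 library per line. The human lines, Jurkat and TALL104, both derive from T-cell leukaemias, which the study calls CD4 and CD8 respectively. Of the mouse lines, EL4 derives from a T-cell lymphoma and is called CD4, and IVA12 is a B-lineage hybridoma. The labels give no treatment, time or engineered allele for any line. Per the study's methods, TALL104 was grown with interleukin-2 and each line in its own medium, so line and culture condition cannot be told apart. Each line is a long-kept tumour or hybridoma culture rather than a primary cell.

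Values were FPKM, a read count divided by gene length and by the total of the library, and the totals behind them ranged from 25286728 to 34783047 reads per library. With 1 library per line there was no replicate check and no test, and each interval given is a 95% counting interval, which leaves out differences between cultures. Of 6 T-cell markers, all 6 had at least 1 FPKM in Jurkat, TALL104 and EL4, and 1 did in IVA12. Of the B-lineage markers, Cd79b and Ms4a1 had at least 1 FPKM in IVA12, whereas Cd79a, Pax5 and Ebf1 did not. In EL4 0 were detected. CD79A had 16.5 FPKM in Jurkat and 24.6 in TALL104, where CD79B (4.80) and EBF1 (1.73) were also detected. The number of these markers detected thus did not set IVA12 apart from the human T-cell lines. Their summed level was 211 FPKM in IVA12, with 163 from Cd79b and 46.5 from Ms4a1, against 17.1 in Jurkat, 31.5 in TALL104 and 0.553 in EL4. Of 5 genes of antibody secretion, all 5 were detected in IVA12, against 2 in Jurkat, 2 in TALL104 and 1 in EL4.

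SLAM receptors are immunoglobulin-type surface proteins of blood cells. Most of them bind a copy of themselves on a neighbouring cell, whereas CD244 binds CD48, which is held in the membrane by a lipid anchor and has no tail inside the cell. In most of the receptors with a tail, though not in all, phosphorylated tyrosines recruit SAP, which brings the kinase FYN to the receptor. SAP is a small adaptor made of little more than an SH2 domain. Without SAP the same tyrosines can recruit phosphatases. Loss of SAP in humans causes X-linked lymphoproliferative disease. In T cells the family is known for contacts with B cells and for killing, and in plasma cells SLAMF7 is a known surface marker.

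The docking site for SAP is a short stretch with the pattern threonine, any residue, tyrosine, any 2 residues, then valine or isoleucine. This pattern was searched in the coding sequence of the GENCODE transcripts. It was found 2 times in human SLAMF1, SLAMF6, SLAMF7, CD84 and LY9, 4 times in CD244, and not in CD48 or SH2D1A. For comparison, 8.11% of 19471 human proteins held at least 1 match and 0.596% held at least 2. In mouse the counts were the same for Slamf1, Slamf6, Cd84, Ly9 and Cd244a, whereas Slamf7 had 1 match. Mouse Cd48 had 1 match at residue 107, 133 residues before the end of the protein. In mouse 7.93% of 21556 proteins held at least 1 match and 0.608% at least 2. A match is a match of letters and was not measured as a binding site.

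The match nearest the end of each tailed receptor is printed below, because it shows how alike the human and mouse genes are there. Whether SAP reads each of these stretches, that of SLAMF7 included, was not tested. Each line holds 18 coding bases from 5′ to 3′ with the tyrosine codon in capitals, human positions being on hg19 and mouse positions on mm10.
SLAMF1, chr1:160580556-160580573, minus strand: acagtcTATgctagtgtg
Slamf1, chr1:171799588-171799605, plus strand: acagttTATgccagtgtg
SLAMF6, chr1:160456909-160456926, minus strand: acaattTACtccacaatt
Slamf6, chr1:171941664-171941681, plus strand: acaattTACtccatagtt
SLAMF7, chr1:160722006-160722023, plus strand: acggttTACtccactgtg
Slamf7, chr1:171636327-171636344, minus strand: acatttTATtccactgtg
CD84, chr1:160519722-160519739, minus strand: acagttTATtccgaagtg
Cd84, chr1:171885601-171885618, plus strand: accattTATtcctcagtg
LY9, chr1:160794010-160794027, plus strand: acaatcTACtgctccata
Ly9, chr1:171593438-171593455, minus strand: acaatcTACtgctctgtg
CD244, chr1:160801215-160802323, minus strand: actatcTATgaagtgatt
Cd244a, chr1:171581685-171582806, plus strand: accgtgTACgaggaggtt

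Of these 18 bases, 16 were the same in human and mouse for SLAMF1 and SLAMF6, 15 for SLAMF7 and LY9, 14 for CD84 and 11 for CD244. The CD244 and Cd244a stretches span an intron, and the other 10 lie within 1 exon. In the first match of SLAMF1 15 of 18 bases were shared, and in the first match of CD84 8 were. The first match of SLAMF7, acagagTACgacacaatc at chr1:160721209-160721226, made 2 in human where mouse Slamf7 had 1.

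At a level of at least 1 FPKM, 6 of 8 members were detected in Jurkat and all 8 in TALL104, against 4 for EL4 and 2 for IVA12. The share of all genes of the same species detected at that level was 33.2% for Jurkat and 33.1% for TALL104, and 34.3% for EL4 and 35.0% for IVA12. In a bulk library, fewer cells with a transcript and less of it per cell cannot be told apart. By FPKM the adaptor was the most abundant member of both human libraries, and it was not detectable above the floor of 3 reads in either mouse library. By reads SLAMF7 led in TALL104, with 19231 against 10700 for SH2D1A.

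**Figure D1:**
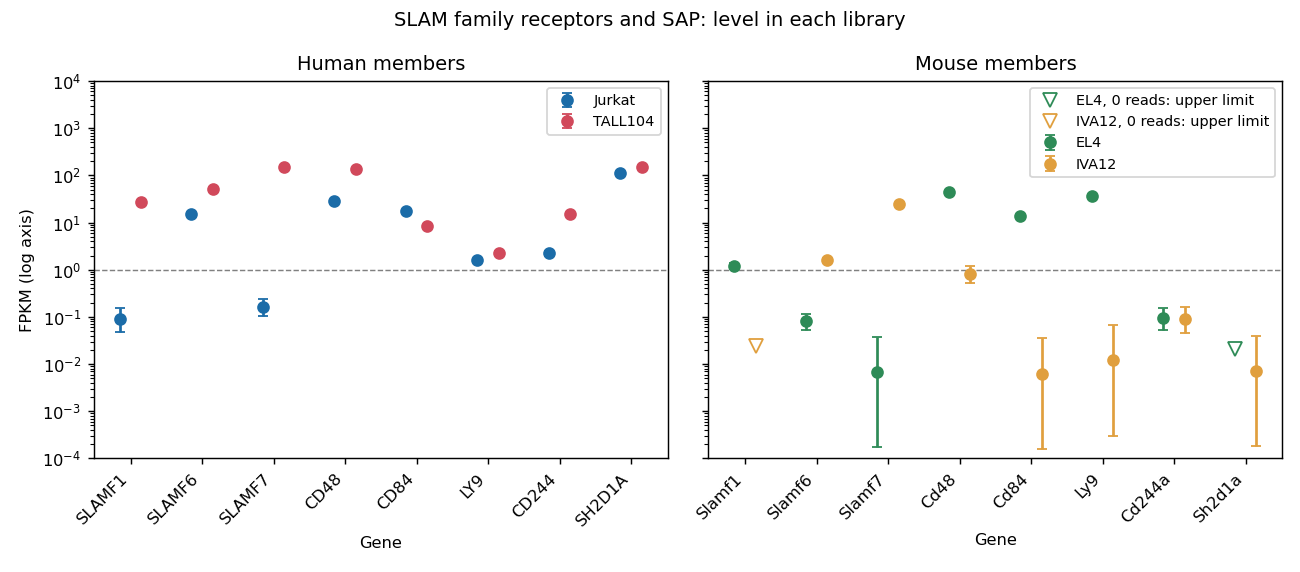
FPKM of each member (log axis) in the 2 human libraries on the left and the 2 mouse libraries on the right. Points are the libraries' values with exact 95% counting intervals, open triangles are the upper limits where no read was counted, and the dashed line marks 1 FPKM. SH2D1A lies at 111 and 154 FPKM in the human libraries and at or near 0 in the mouse libraries, and SLAMF7 differs most between the 2 human libraries.

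SAP itself, encoded by SH2D1A (ENSG00000183918, chrX:123361718-123507047 of hg19, plus strand), had 111 FPKM in Jurkat from 9435 reads and 154 FPKM in TALL104 from 10700 reads. It was thus 1.39-fold higher in TALL104 (1.35 to 1.43), under the 1.5-fold that counts as a difference here. Its level stood at percentile 97.6 of the detected human genes in Jurkat and 98.7 in TALL104, and no SLAM receptor stood higher in either library. Mouse Sh2d1a (ENSMUSG00000005696, chrX:42502453-42529330 of mm10, plus strand) had 0 reads in EL4, which allows up to 0.0208 FPKM, and 1 read in IVA12, which allows up to 0.0400. The counting intervals of the adaptor in the human lines and in EL4, all of which held the 6 T-cell markers, did not overlap, although human and mouse values rest on different gene models. The human gene shares its strand with STAG2 in the annotation, a cohesin subunit with 61.4 FPKM in Jurkat and 35.9 in TALL104, and reads of overlapping exons could be placed with either.

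SLAMF7, a receptor for itself on killer lymphocytes and plasma cells, had 0.162 FPKM in Jurkat (26 reads, 0.106 to 0.238) and 147 in TALL104 (19231 reads, 145 to 149). The TALL104 level was 908-fold higher (619 to 1390) and lay at percentile 98.6 of the detected genes. Mouse Slamf7 had 0.00680 FPKM in EL4 from 1 read and 24.7 in IVA12 from 2853 reads (23.8 to 25.6). The ratio of IVA12 to EL4 was 3627, with a counting interval from 651 to 143319 that is wide because it rests on 1 read in EL4. SLAMF7 was therefore high in 1 line of each species, the human CD8 line and the mouse hybridoma, and at trace level in the other.

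SLAMF1, also called CD150, binds itself and is the entry receptor of measles virus. It had 0.0886 FPKM in Jurkat (13 reads, 0.0472 to 0.151) and 26.8 in TALL104 (3202 reads, 25.9 to 27.7), 302-fold higher (176 to 568). The 13 Jurkat reads are fewer than the 19 that mouse Jchain drew in that library. Mouse members drew at most 1 read each there, and whether the 13 reads are stray was not settled. Mouse Slamf1 had 1.2 FPKM in EL4 (237 reads, 1.05 to 1.36) and 0 reads in IVA12, which allows up to 0.0237. No fold is given against a level of 0. Its EL4 level was low, at percentile 1.95 of the detected mouse genes.

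SLAMF6, a self-binding receptor of T, B and natural killer cells, had 15.0 FPKM in Jurkat (1431 reads) and 51.2 in TALL104 (3982 reads), 3.41-fold higher in TALL104 (3.21 to 3.63). Mouse Slamf6 had 0.0804 FPKM in EL4 (28 reads) and 1.61 in IVA12 (442 reads), 20.1-fold higher in IVA12 (13.7 to 30.6). Both human lines held it well above 1 FPKM, and of the mouse lines the hybridoma passed 1 FPKM and EL4 did not.

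CD48, the anchored ligand of CD244 that also binds CD2, had 28.0 FPKM in Jurkat (2430 reads, 26.9 to 29.1) and 135 in TALL104 (9563 reads, 133 to 138). TALL104 was 4.83-fold higher (4.62 to 5.05). Mouse Cd48 had 45.5 FPKM in EL4 (1738 reads, 43.4 to 47.7) and 0.798 in IVA12 (24 reads, 0.511 to 1.19), 57-fold higher in EL4 (38.2 to 89.1). The 3 T-cell lines all had at least 28.0 FPKM of this ligand, and the hybridoma had under 1 FPKM with an interval that reached above 1.

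CD244, also called 2B4, is the receptor for CD48 on natural killer and CD8 T cells. It had 2.22 FPKM in Jurkat (224 reads, 1.94 to 2.53) and 14.8 in TALL104 (1220 reads, 14.0 to 15.7), 6.68-fold higher in TALL104 (5.79 to 7.74). Mouse Cd244a had 0.0957 FPKM in EL4 (15 reads) and 0.0892 in IVA12 (11 reads), with a ratio of 1.07 whose interval ran from 0.460 to 2.58. Ligand and receptor were thus both detected in the 2 human lines, whereas in the mouse lines the receptor was under 1 FPKM beside 45.5 FPKM of the ligand in EL4. Cd244a and Ly9 overlap on opposite strands in the mouse annotation, and whether counting used strand is not stated in the sources used here.

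CD84, a self-binding receptor of B cells, T cells and platelets, was the only member called higher in Jurkat. It had 17.8 FPKM there (5722 reads, 17.3 to 18.2) and 8.35 in TALL104 (2190 reads, 8.0 to 8.71), a 2.13-fold difference (2.03 to 2.24). Mouse Cd84 had 14.1 FPKM in EL4 (2840 reads, 13.6 to 14.6) and 0.00631 in IVA12 from 1 read, a ratio of 2234 with an interval from 401 to 88260.

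LY9, also called CD229, is the member with the longest protein, 655 residues in human and 654 in mouse. It had 1.57 FPKM in Jurkat (499 reads, 1.44 to 1.72) and 2.27 in TALL104 (588 reads, 2.09 to 2.47), a 1.45-fold difference (1.28 to 1.63) that was not called. Mouse Ly9 had 36.3 FPKM in EL4 (3860 reads, 35.2 to 37.5) and 0.0120 in IVA12 from 1 read, a ratio of 3036 with an interval from 545 to 119948. Ly9 was the member with the largest log2 difference on FPKM + 1 between the mouse lines, while LY9 had the smallest between the human lines. Both ranks depend on the added 1 FPKM. On plain FPKM the mouse ratio was larger for Slamf7, at 3627, and the human ratio smaller for SH2D1A, at 1.39.

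Across the 8 human members, a difference was called when FPKM + 1 differed by more than 1.5-fold. By this rule 5 members were higher in TALL104, against 11.4% of all human genes, and 1 was higher in Jurkat, against 13.8% of all human genes. LY9 and SH2D1A were called in neither direction. Among human genes with at least 1 FPKM in either line, a group that holds all 8 members, 62.6% were called in one direction or the other, so that 6 of 8 called members are not far from that share. The median log2 ratio of Jurkat over TALL104 on FPKM + 1 was -1.97 over the members and 0 over all human genes, with members ranging from -7.00 for SLAMF7 to 1.01 for CD84. Genes detected in both human lines had a median log2 ratio of 0.10.

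Across the 8 mouse members, 4 were higher in EL4 (Slamf1, Cd48, Cd84 and Ly9), against 9.75% of all mouse genes. Slamf6 and Slamf7 were higher in IVA12, against 11.2% of all mouse genes. Cd244a and Sh2d1a were called in neither direction and were under 1 FPKM in both lines. Among mouse genes with at least 1 FPKM in either line, which include 6 of the 8 members, 50.3% were called in one direction or the other, and all 6 of those members were. The median log2 ratio of EL4 over IVA12 was 0.57 over the members and 0 over all mouse genes, with members from -4.67 for Slamf7 to 5.20 for Ly9. This median lies between 2 sets of members that moved in opposite directions, and so describes neither set.

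**Figure D2:**
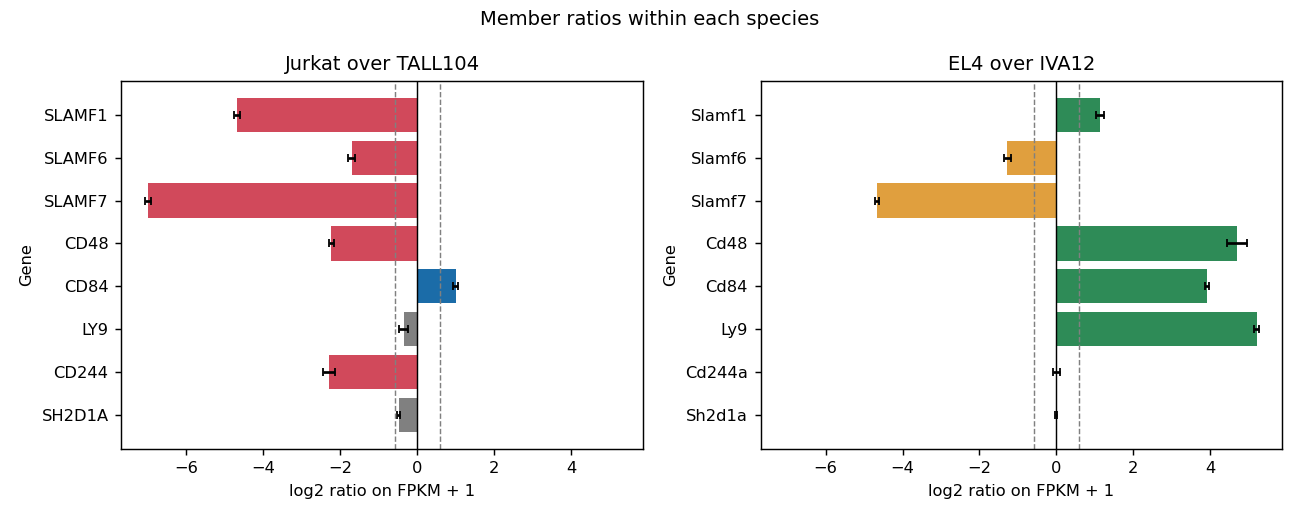
Log2 ratio on FPKM + 1 for each member, Jurkat over TALL104 on the left and EL4 over IVA12 on the right. Bars are coloured by the line in which the member was called higher and grey where it was not called, error bars are 95% counting intervals, and dashed lines mark 1.5-fold. The human bars run from -7.00 to 1.01 with 5 of 8 called toward TALL104, and the mouse bars split into 4 toward EL4 and 2 toward IVA12.

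The makeup of the receptors differed between the lines. The 7 receptors, leaving out the adaptor, summed to 64.8 FPKM for Jurkat and 386 for TALL104, and to 97.2 for EL4 and 27.2 for IVA12. CD48 led in Jurkat with 43.2% of this sum (42.1 to 44.4), followed by CD84 with 27.4% and SLAMF6 with 23.1%. In TALL104 the leader was SLAMF7 with 38.2% (37.7 to 38.6), CD48 came next with 35.0%, and SLAMF6 with 13.3%. In EL4 the leader was Cd48 with 46.8% (45.4 to 48.1), and Ly9 and Cd84 added 37.3% and 14.5%. Slamf7 made up 90.7% (89.5 to 92.0) of the sum in IVA12, where Slamf6 was next with 5.94%. The sum leaves out Slamf9, a family receptor outside the 8 symbols, which had 81.9 FPKM in IVA12 (2718 reads, 78.8 to 85.0) and so stood above Slamf7 there.

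Since a longer transcript gives more reads at the same FPKM, the leader by reads was different in 2 lines. By reads CD84 led in Jurkat with 55.3% of receptor reads and Ly9 in EL4 with 44.3%, whereas SLAMF7 and Slamf7 led by both measures in TALL104 and IVA12. In the order of levels, all neighbours were further apart than their counting intervals in TALL104. In Jurkat SLAMF7 and SLAMF1, at the bottom of the order, could not be separated. In EL4 Cd244a and Slamf6 could not. In IVA12 each of Cd244a, Ly9 and Cd84 overlapped the next gene in the order down to Slamf1, although Cd244a did not overlap Cd84 or Slamf1. The amount of adaptor transcript per summed receptor FPKM was 1.71 in Jurkat and 0.399 in TALL104.

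**Figure D3:**
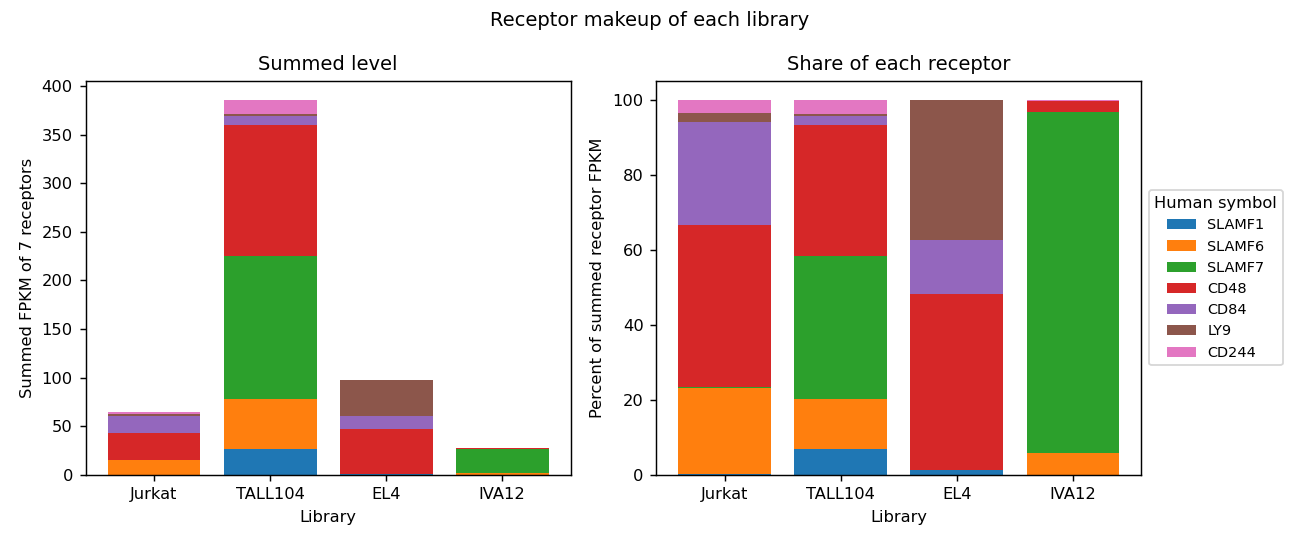
Summed FPKM of the 7 receptors (left) and each receptor's percent of that sum (right) in the 4 libraries, coloured by receptor under its human symbol. TALL104 has the highest sum at 386 FPKM, and the green SLAMF7 part takes 38.2% there and 90.7% in IVA12 but is barely visible in Jurkat and EL4.

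Reads placed on genes of the wrong species show how low a value can be told from stray placement. In the 2 human libraries 3 and 4 of the 8 mouse members had any read, with at most 2 reads on a gene. In EL4 and IVA12 4 of the 8 human members had any read, with at most 3 and 5 reads on a gene. The single reads on Slamf7 in EL4 and on Cd84, Ly9 and Sh2d1a in IVA12 lie within that range. Over all genes of the lists used here, the members included, the highest wrong-species count was 19 reads for Jurkat and 8 for TALL104. It was 9 for EL4 and 23 for IVA12. The 19 reads fell on Jchain, which had 82067 reads in IVA12, so a library's highest count is not a background for a given gene. The 13 reads of SLAMF1 in Jurkat and the 11 of Cd244a in IVA12 are below their libraries' highest wrong-species counts. They are above the highest such counts on members, 1 in Jurkat and 5 in IVA12, so whether they are stray was not settled. The 26 reads of SLAMF7 in Jurkat and the 15 of Cd244a and 28 of Slamf6 in EL4 exceed both counts of their library. The 24 reads of Cd48 in IVA12 just exceed the 23 there. In mouse, Cd244a overlaps Ly9 and Slamf6 overlaps Gm37065 (0.367 FPKM in EL4) on opposite strands. Whether their trace reads came from those genes was not tested. Carry-over from the other library of the species, such as TALL104 with 19231 reads of SLAMF7, was not tested.

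The genes around the receptors were read from a list of 23 genes per species, with the receptors SLAMF8 and SLAMF9, the EAT-2 type adaptors, the kinases, phosphatases and other adaptors of the pathway, and CD2. The human list also held CD58, the ligand of CD2, and the mouse list held Sh2d1b2 as a further adaptor. In human 12 of the 23 were higher in TALL104, against 11.4% of all human genes, 2 were higher in Jurkat, against 13.8%, and 9 were called in neither direction, with a median log2 ratio of -0.63 beside 0 over all human genes. The 14 called are close to the 62.6% called among human genes with at least 1 FPKM in either line, a group that leaves out SLAMF9, at 0 in both lines. At 2-fold, 9 were called. FYN, the kinase that SAP brings to the receptors, had 13.3 FPKM in Jurkat and 23.8 in TALL104. SH2D1B, which encodes the SAP-like adaptor EAT-2 of natural killer cells, had 0 reads in Jurkat and 3.37 FPKM from 267 reads in TALL104. INPP5D encodes SHIP, a lipid phosphatase that SLAM receptors can recruit, and had 5.0 FPKM in Jurkat and 67.3 in TALL104. DOK2, an adaptor that restrains Ras signalling, had 9.54 and 42.7 FPKM.

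CD2, a relative of the SLAM receptors and itself an adhesion receptor, went the other way, with 86.0 FPKM in Jurkat and 15.6 in TALL104. PTPN11, which encodes the phosphatase SHP-2, was the other gene called higher in Jurkat, with 67.3 and 28.3 FPKM. It is named here after its values were seen. CD58 was higher in TALL104, with 18.3 FPKM against 8.82 in Jurkat.

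In mouse 8 of the 23 were higher in EL4, against 9.75% of all mouse genes, 2 were higher in IVA12, against 11.2%, and 13 were called in neither direction, with a median log2 ratio of 0.19 beside 0 over all mouse genes. The 10 called stand beside 50.3% of the mouse genes with at least 1 FPKM in either line. That group leaves out list genes under 1 FPKM in both lines, of which 3 had 0 FPKM in both, so the shares are not on the same basis. The 2 higher in IVA12 were the receptor gene Slamf9, with 10.3 FPKM in EL4 and 81.9 in IVA12, and Plcg1, a phospholipase gene, with 1.64 and 5.09 FPKM, and both are named here after their values were seen. The 4 widest apart were Lck, Ptpn6, Ptprc and Dok2. Lck, the T-cell kinase that is also among the T-cell markers used here, had 96.5 FPKM in EL4 and 0.527 in IVA12. Ptpn6, which encodes the phosphatase SHP-1, had 266 and 6.31 FPKM. Ptprc, which encodes CD45, had 49.1 and 2.19 FPKM, and Dok2 had 11.0 and 0.123. Fyn was at 16.4 and 21.8 FPKM and was not called. Cd2 had 17.8 and 9.99 FPKM, and Inpp5d 17.9 and 11.3. Neither mouse gene for an EAT-2 type adaptor reached 1 FPKM, since Sh2d1b1 had 0.0489 FPKM from 4 reads in EL4 and 0.0466 from 3 reads in IVA12, and Sh2d1b2 had 0 reads in both. EL4 and IVA12 thus held Fyn, while the 3 SAP-type adaptor genes were all under 1 FPKM.

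**Figure D4:**
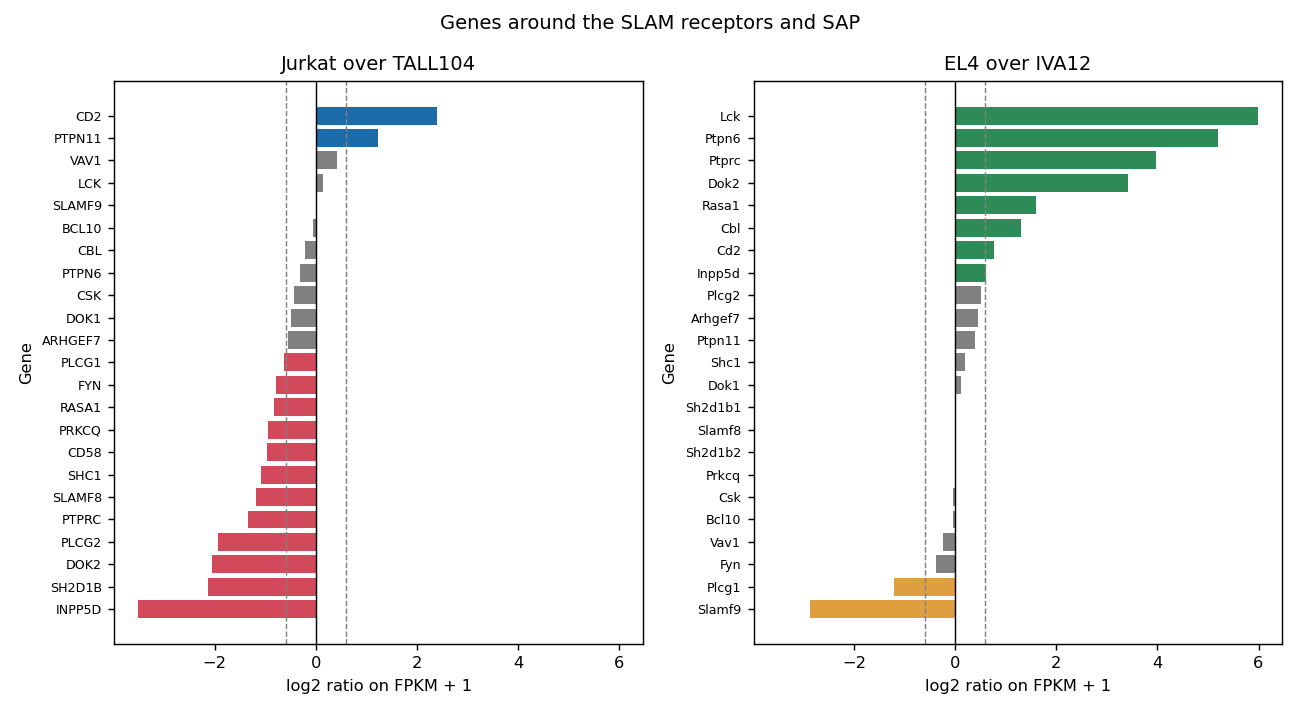
Log2 ratio on FPKM + 1 of the 23 listed pathway genes per species, Jurkat over TALL104 on the left and EL4 over IVA12 on the right, sorted by ratio. Bars are coloured by the line in which the gene was called higher and grey where it was not called, and dashed lines mark 1.5-fold. In human 12 bars point past the line toward TALL104 with INPP5D furthest, and in mouse 8 point toward EL4 with Lck furthest.

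The 7 receptor genes lie side by side on chromosome 1 in both species. The human cluster spans chr1:160454820-160832677 of hg19, 377858 bases, in the order SLAMF6, CD84, SLAMF1, CD48, SLAMF7, LY9, CD244. The mouse cluster spans chr1:171559193-171953170 of mm10, 393978 bases, in the opposite order with Cd244a first and Slamf6 last. No other protein-coding gene of the table starts between the human members, and 1, Gm10521, does between the mouse members.

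Neighbours were taken within 300000 bases on either side. Of 25 human neighbours, 2 were higher in Jurkat, 2 were higher in TALL104 and 21 were not called, beside 13.8% and 11.4% of all human genes called in those directions. The widest apart were VANGL2, a planar polarity gene next to SLAMF6, with 3.74 FPKM in Jurkat and 0.0462 in TALL104, and PFDN2, a prefoldin subunit, with 96.6 and 28.7 FPKM. Both were higher in Jurkat, the direction opposite to 5 of the members. Of 26 mouse neighbours, 2 were higher in EL4, 4 were higher in IVA12 and 20 were not called, beside 9.75% and 11.2% of all mouse genes. Vangl2 had 12.6 FPKM in EL4 and 0.345 in IVA12, and F11r, a junction protein gene, had 0 in EL4 and 3.98 in IVA12. Within the cluster itself, members next to each other went opposite ways, as Ly9 (higher in EL4), Slamf7 (higher in IVA12) and Cd48 (higher in EL4) did.

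**Figure D5:**
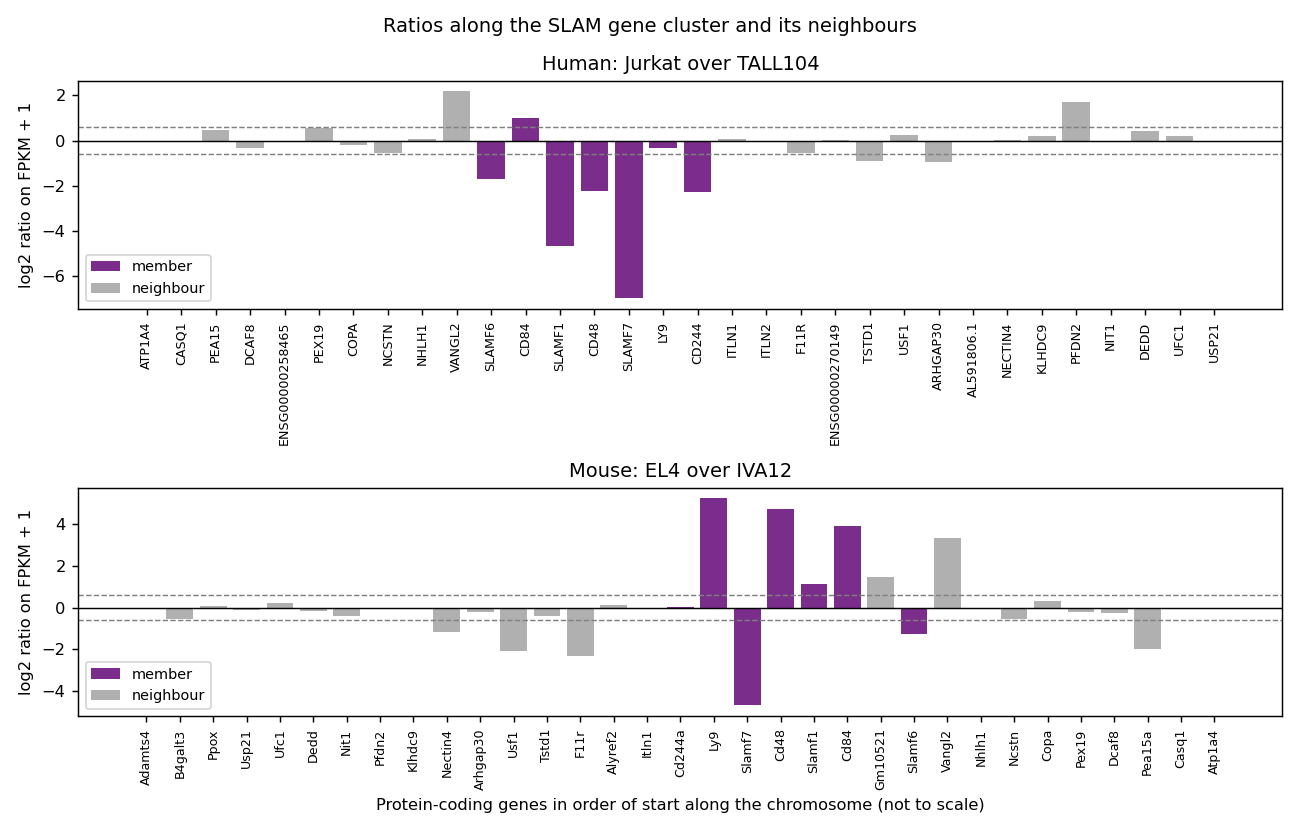
Log2 ratio on FPKM + 1 of each protein-coding gene in the receptor cluster and within 300000 bases of it, in the order of start positions (equal spacing, not to scale), human above and mouse below. Purple bars are members, grey bars neighbours and dashed lines mark 1.5-fold. The bars furthest below 0 in both species and the bar furthest above 0 in mouse are members, the bar furthest above 0 in human is the neighbour VANGL2 at 2.18, and 21 of 25 human and 20 of 26 mouse neighbours stay within the dashed lines.

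For the 7 receptors, each of which reached 10 FPKM in at least 1 library, the gene with the most similar pattern was taken as the smallest Euclidean distance of log2(FPKM + 1) over the 4 libraries, among 15553 symbols found in both species. With 4 points, 1 per library, this is a description only. The closest match was MXRA7 for CD244 at a distance of 0.223, followed by GSTK1 for SLAMF6 at 0.290. IL2RA, the alpha chain of the interleukin-2 receptor, was nearest to SLAMF1 at 0.386, with 0.0815 and 22.6 FPKM in the human lines Jurkat and TALL104 and 0.779 and 0 FPKM in the mouse lines EL4 and IVA12. BCL11B, a transcription factor of the T lineage, was nearest to CD84 at 0.536, with 20.2, 12.2, 13.3 and 0.0195 FPKM in the same order. The nearest genes to LY9 and CD48 were SLC30A4 at 0.848 and EMB at 0.863. SLAMF7 had the least close neighbour of the 7 receptors, SAMHD1 at 1.83.

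Sums of marker lists are given beside the members, and their part in the member values was not tested. The 6 cytotoxic genes summed to 46.4 FPKM in Jurkat and 1977 in TALL104, the line with the higher SLAMF7, SLAMF1, SLAMF6, CD48 and CD244. They summed to 83.4 in EL4 and 0.984 in IVA12. Of the 6, 4 were detected in Jurkat and 5 in TALL104, where GZMA alone had 901 FPKM. The 5 genes of antibody secretion summed to 1985 FPKM in IVA12, the mouse line with the higher Slamf7, and to 16.3 in EL4. In the human lines, where SLAMF7 was 908-fold higher in TALL104, they summed to 79.1 in Jurkat and 86.2 in TALL104. The T-cell markers summed to 614 FPKM in EL4, the line with the higher Cd48, Cd84 and Ly9, and to 2.06 in IVA12. They summed to 896 in Jurkat and 762 in TALL104, the human line with the higher CD48. Of 5 macrophage markers, 0 were detected in Jurkat and IVA12, 1 in EL4 and 2 in TALL104, where they summed to 10.4 FPKM.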

How the data were processed

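Messenger RNA of 4 cell lines was sequenced, with 1 library per line. Per the study's methods, RNA was prepared with a stranded poly(A) kit, and the authors aligned reads with STAR 2.5.1b to a combined hg19 and mm10 reference and counted them with featureCounts 1.6.3. The authors deposited their values as FPKM. Their reference carried Ensembl gene annotation, in earlier releases than the GENCODE sets used here for positions and annotated lengths. Which gene lengths were used, whether strand was used and how reads with several alignments were treated is not given in the sources used here.

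Reads were recovered from the FPKM, since each value is proportional to a read count divided by a gene length within a library. All values above 0 were whole at a relative tolerance of 1e-12 (gene lengths up to 300000 bases). The length that came out matched the annotated exons for 8 of 8 mouse and 2 of 8 human members, so reads of the other 6 human members could share a factor that was missed. Poisson intervals and intervals of ratios (exact binomial) are at 95%, as are those of shares and of log2 ratios on FPKM + 1, which used the delta method. They and the floor of 3 reads cover counting error only, because PCR copies were not told apart from molecules.

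Ratios used a pseudocount of 1 FPKM, which understates differences of low genes. Printed folds are ratios of the FPKM themselves. With 1 library per line, no model was fitted. Positions and coding sequences came from GENCODE 44 (mapped to hg19) and M21 (mm10), which gave symbols for 31182 human and 27722 mouse genes. Python 3.11.15, NumPy 2.4.6, pandas 2.3.3, SciPy 1.17.1 and matplotlib 3.10.9 were used. On simulated data with 200 changed genes per pair, all 200 were called in the right direction in both pairs. Of the unchanged genes, 17 of 30982 in human and 8 of 27522 in mouse were called. The changed genes were drawn from well-detected ones and differed by at least 2-fold, above the 1.5-fold threshold, so their calls were all but fixed in advance. Noise was counting noise only, so this checks the code and says nothing about changes in low genes or differences between cultures.

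The members, lists, thresholds and alternatives were chosen with earlier results of these data known. Named genes were all members, SH2D1B, FYN, INPP5D, CD2, CD58 and the 4 list genes and 2 neighbours furthest apart in each pair. Alternatives were other pseudocounts, scalings, detection limits and a 2-fold threshold. The nearest pattern to SH2D1A and 1 marker are not reported here.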

Additional observations from a re-analysis of the deposited data

Results flagged for a closer look

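Human SLAMF7 had 5 reads in the mouse line IVA12, 0.0429 FPKM (0.0139 to 0.10), above the 3 reads that a count of 0 allows. It was picked out because human genes in a mouse library enter no comparison and the count passes that limit. Other listed human genes had up to 23 reads in IVA12, so 5 reads lie within the range of stray placement. Mouse Slamf7 had 2853 reads in the same library.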

How the results depend on the processing

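The number of members called was 6 in each pair and kept within 1.5 times of that under all alternatives run, with 7 in mouse at a pseudocount of 0.01 as the other value, where Sh2d1a was added on 1 read. The human median of -1.97 went to -2.02 at a pseudocount of 0.01, -2.08 when scaled by the median ratio and -2.07 when scaled to totals without mitochondrially encoded genes. The mouse median of 0.57 went to 1.87 and 2.95 at pseudocounts of 0.1 and 0.01 and to 2.52 over the 6 members with at least 1 FPKM in either line. At 2-fold, 9 human pathway genes were called instead of 14. Counting any FPKM above 0 as detected gave 7 members in EL4 and in IVA12, and a limit of 5 FPKM gave 1 in IVA12. By reads, the share of the leading receptor was 23.5% for CD48 in Jurkat, 48.1% for SLAMF7 in TALL104, 19.9% for Cd48 in EL4 and 85.6% for Slamf7 in IVA12. Of 80 recomputed member ratios, 32 moved by more than their counting interval and 0 changed sign after being called. No paired analysis was possible because each line had 1 library and no result came from a test. Members at 1 read or 0 cannot be ranked at this depth, and no spread between cultures was measured.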
